A study of Mus musculus with 6 samples.

Results

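The genes described here are 10 members of the interleukin-1 (IL-1) system: the ligands Il1a, Il1b and Il18, the inhibitors Il1rn and Il18bp, the receptor chains Il1r1, Il1rap and Il1r2, and the inflammasome genes Nlrp3 and Casp1. They were taken by name from a 1-colour Agilent mouse array, on which they are 10 of 34760 gene or feature names and have 13 of the 55681 non-control probes. All 10 were represented, Il1rap by 3 probes, Nlrp3 by 2 and each of the others by 1. The RNA came from macrophages that the labels call polarized M2-like BMM, grown from c-Maf KO or WT cells of chimeric mice that carried fetal liver of that genotype. The c-Maf KO group and the WT group had 3 samples each. Both groups shared one culture: DMEM with 10% FBS, 1% penicillin/streptomycin and M-CSF at 10 ng/ml, a macrophage growth factor that was added again each day from day 4. M-CSF is the only cytokine that the labels name, and no agent that primes or triggers an inflammasome is named for either group. How much of their own blood-forming tissue the chimeric hosts kept, and which part of Maf was deleted, are not stated there. The labels do not say whether the samples of a group came from separate mice, and the p-values therefore cover only how far these particular samples scattered, for technical reasons or others.

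IL-1α, IL-1β and IL-18 are inflammatory cytokines of myeloid and barrier cells that signal through paired receptor chains to MyD88 and NF-κB. IL-1β and IL-18 are made as inactive precursors and are cut by caspase-1, which is activated when a sensor such as NLRP3 assembles an inflammasome. In macrophages the precursor of IL-1β and NLRP3 itself are induced by microbial or cytokine signals, whereas caspase-1 and IL-18 precursor are commonly present at rest, and secreted antagonists and decoy receptors hold the system in check. An array measures the RNA and not the cleavage or release of these proteins.

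Each probe is 60 bases long. For genes with several probes the place of the probe matters for what was measured, and the first 30 bases of each are printed for the genes with more than 1 probe, together with those of Il1b, whose probe was spotted 10 times, and Il18bp, whose groups lay apart. The coordinates are those of the array files (mm9): the Il1rap probes lie at chr16:26701498-26701557 (A_52_P467232), chr16:26716515-26716574 (A_55_P2041422) and chr16:26725291-26725350 (A_55_P2041432), the Nlrp3 probes at chr11:59378554-59378613 (A_52_P650540) and chr11:59379981-59380040 (A_55_P2273439), the Il1b probe at chr2:129190347-129190406 and the Il18bp probe at chr7:109164100-109164159. The first Il1rap probe was designed on transcript variant 2, which differs from variant 1, the target of A_55_P2041422, and A_55_P2041432 was designed on an Ensembl transcript.
Il1b A_51_P212782: aggttcctataatatggatgagaattttta
Il18bp A_52_P577384: aaactcaagcttcacttctaccctagatta
Il1rap A_52_P467232: gatgttgtcaacgcctttgtttctaaatgt
Il1rap A_55_P2041422: catacatctttcagtagtcattggcaaaat
Il1rap A_55_P2041432: ccattttctttaaccagctcttccttgatc
Nlrp3 A_52_P650540: cggccttacttcaatctgttgttcagctct
Nlrp3 A_55_P2273439: atatcctcagtgggcaaggtgttccctctt

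Scanner intensities were used for 5 arrays, c-Maf KO replicates 2 and 3 and WT replicates 1 to 3. The remaining sample, c-Maf KO replicate 1, is known here only from the authors' table of ratios, which covers all 6. Levels are log2 intensities relative to the array's 75th percentile, so that 0 is the brightness at that percentile, and ratios are log2 of the deposited ratio to the probe's median over the 6 samples. Where intensities are given, they are those before this scaling and are not comparable between arrays as they stand. The 75th percentile was 436 and 495 on c-Maf KO arrays 2 and 3, against 419, 411 and 448 on WT arrays 1, 2 and 3. On each array 48.9% to 50.5% of the probes were well above background, and the lowest such signal had a level between -4.36 and -4.18. Maf, the targeted gene, had ratios of -2.22, -2.36 and -1.92 in c-Maf KO samples and 1.92, 1.98 and 2.03 in WT samples, a difference of -4.14 (limma, adjusted p = 0.000826). All 8 macrophage markers examined, among them Csf1r, Cd68 and Adgre1, were detected on all 5 arrays. The c-Maf KO arrays and the WT arrays lay in different rows of one slide, and row and genotype cannot be told apart. In bulk RNA, fewer cells of a type and less RNA per cell cannot be told apart either.

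Of the 13 probes, 10 probes of 8 genes were well above background on at least 2 arrays, and Il1a, Il1r2 and 1 of the 3 Il1rap probes were not detected on any of the 5 arrays. None of the 10 probes passed an adjusted p of 0.05 between c-Maf KO and WT. The same test on the 5 arrays called 7 of 28273 probes (0.0248%), and the test on the 6-sample ratios called 6 (0.0212%). An unadjusted p under 0.05 was reached by 2 of the 10 probes on the 5 arrays (Il18bp and Il1r1), where it was reached by 10.5% of all probes, and by 1 of the 10 in the ratios (Il18bp), where it was reached by 12.1%. The groups did not overlap for 3 of the 10 probes on the 5 arrays, where 29.4% of all probes did not overlap: Il18bp and Il1r1 lay higher in c-Maf KO (13.2% of all probes) and Casp1 lower (16.2%). In the ratios this held for 2 of the 10, against 19.4% of all probes: Il18bp on the high side (10.2%) and Casp1 on the low side (9.26%). None of these counts lies more than 1 probe from the background share. The smallest adjusted p among the 10 was 0.379 on the 5 arrays and 0.298 in the ratios.

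**Figure D1:**
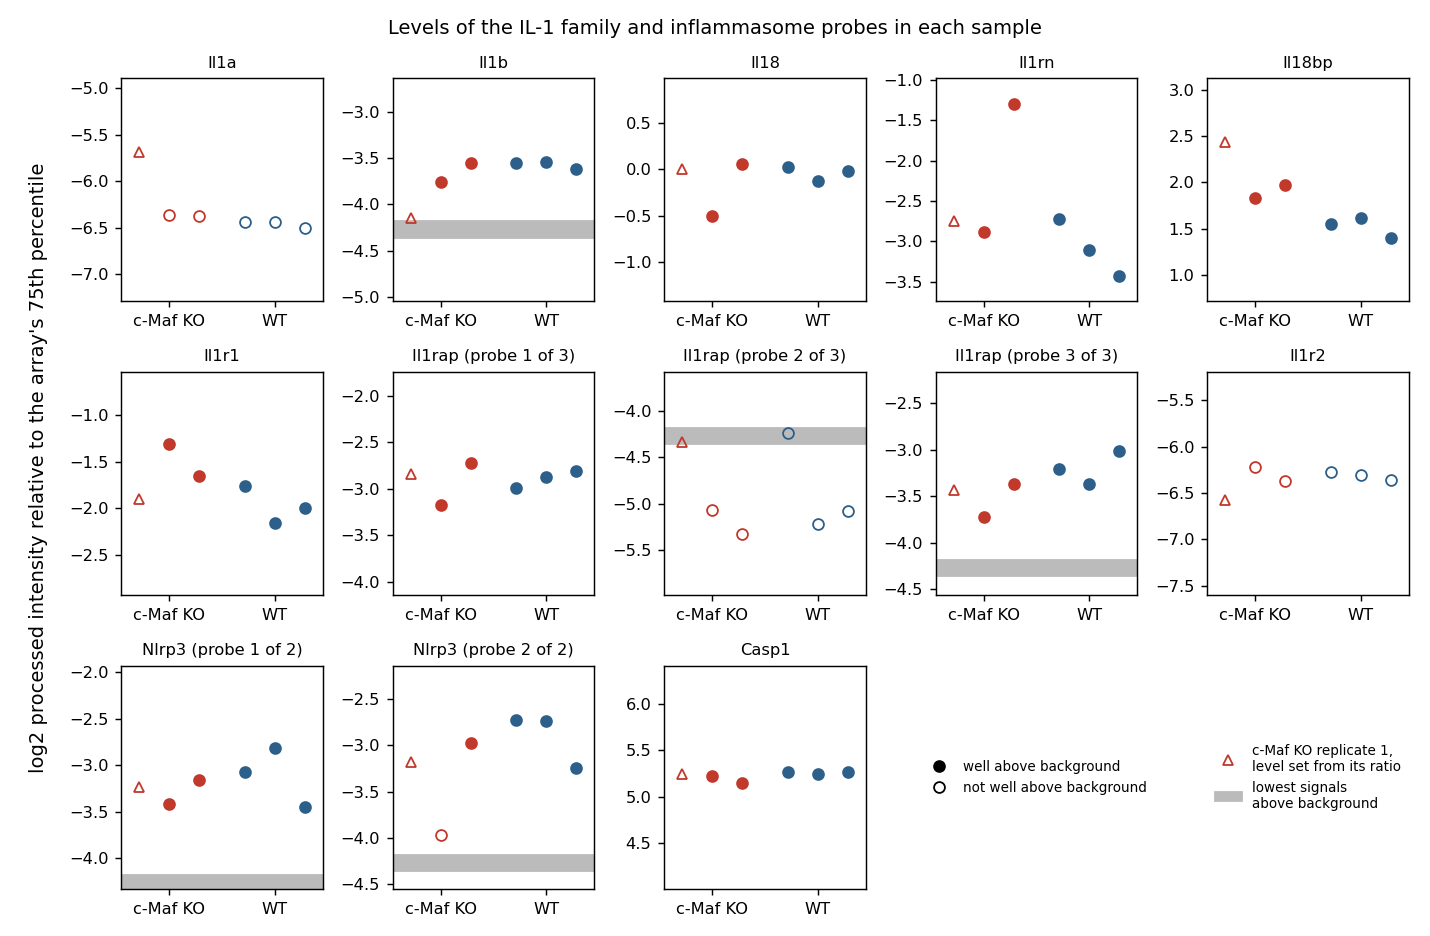
Level (vertical axes, log2 intensity relative to the array's 75th percentile) of the 13 member probes in c-Maf KO and WT samples, with filled points well above background, open points not, triangles for c-Maf KO replicate 1 placed from its ratio, a grey band for the lowest signals above background on the arrays, and probes of one gene numbered by position on the chromosome. Casp1 lies between 5.15 and 5.27 in the 5 arrays and far above the band, Il1b lies just above it, and Il1a and Il1r2 lie below it in every array.

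Among the ligands, Il1a encodes IL-1α, which is active without cleavage and acts as an alarm signal of damaged cells. Its level was -6.36 and -6.38 on the c-Maf KO arrays, against -6.44, -6.44 and -6.50 on the WT arrays. Its probe was not well above background on any of these arrays, and on 4 of the 5 its intensity was a surrogate that the extraction software had put in for a dim spot, so that no fold is given.

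Il1b encodes the IL-1β precursor. Its level was -3.76 and -3.55 on the c-Maf KO arrays, against -3.55, -3.55 and -3.62 on the WT arrays, which put it 0.43 to 0.81 log2 units above the lowest detected signal of the same array. The probe was thus detected near the lower limit in both genotypes, and the groups overlapped. Because the probe was spotted 10 times on each array, its precision within an array can be read directly. The repeat spots ran between -3.98 and -3.40 on c-Maf KO array 2 (9 spots used) and between -3.91 and -3.18 on c-Maf KO array 3, against -4.13 to -2.99, -4.16 to -3.15 and -3.95 to -3.29 on WT arrays 1, 2 and 3. The standard error of the array mean was 0.061 and 0.081 on the c-Maf KO arrays and 0.113, 0.114 and 0.071 on the WT arrays. The genotype difference on the 5 arrays was -0.08 ± 0.09 (SE, 95% interval -0.31 to 0.14, limma, adjusted p = 0.787).

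**Figure D2:**
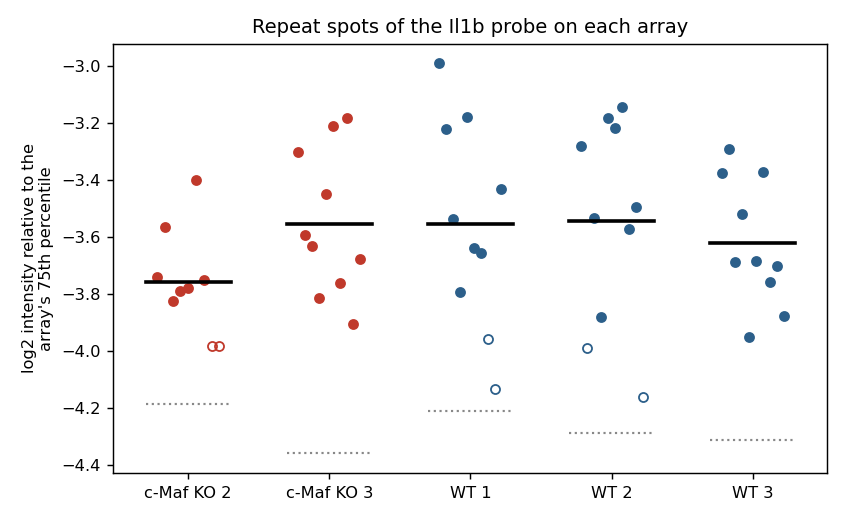
Repeat spots of the Il1b probe on each array (vertical axis, log2 intensity relative to the array's 75th percentile; points are spots that were not flagged, filled where well above background; black lines are array means and dotted lines the lowest signal above background). The spots of the 2 c-Maf KO arrays, between -3.98 and -3.18, lie within the range of those of the 3 WT arrays, between -4.16 and -2.99.

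In the ratios Il1b was -0.56, -0.16 and 0.02 in c-Maf KO samples, against 0.02, 0.03 and -0.02 in WT samples. The lowest value was that of c-Maf KO replicate 1, whose level, placed on the array scale from its ratio, was -4.14. That is just above the lowest detected signals of the arrays. Repeat spots of the Il1b probe at similar levels, -4.13 on WT array 1 and -4.16 on WT array 2, were not well above background. Whether the probe was detected in c-Maf KO replicate 1 is not known. The 6-sample difference was -0.24 ± 0.15 (SE, limma, adjusted p = 0.56), and without c-Maf KO replicate 1 it was -0.08.

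Il18 encodes the IL-18 precursor, a cytokine known for driving interferon-γ production by T and NK cells. It was detected on all 5 arrays, at intensities of 307 and 514 on the c-Maf KO arrays and 424, 377 and 442 on the WT arrays, and was therefore bright enough to be measured well above the lower limit. Its ratios were 0.01, -0.49 and 0.05 in c-Maf KO samples, against 0.01, -0.13 and -0.01 in WT samples. A single sample, c-Maf KO replicate 2, lay apart on the low side and the other 5 lay close together. The difference was -0.18 ± 0.18 on the 5 arrays and -0.10 ± 0.16 in the ratios (SE, limma, adjusted p = 0.769 and 0.818). Without c-Maf KO replicate 2 the sign turned, to 0.10 on the arrays and 0.07 in the ratios.

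Of the inhibitors, Il18bp encodes a secreted protein that binds IL-18 and keeps it from its receptor. It was the member with the smallest p in both sources. Its intensity was 1546 and 1946 on the c-Maf KO arrays, against 1233, 1262 and 1183 on the WT arrays. Its ratios were 0.71, 0.11 and 0.24 in c-Maf KO samples, against -0.17, -0.11 and -0.31 in WT samples, so that all c-Maf KO samples lay above all WT samples, with c-Maf KO replicate 1 the highest. The mean level was 1.90 ± 0.11 in c-Maf KO (SD, n = 2) and 1.53 ± 0.11 in WT (SD, n = 3). The difference was 0.38 ± 0.10 on the 5 arrays (1.30-fold, 95% interval 0.12 to 0.63, limma, adjusted p = 0.379) and 0.56 ± 0.17 in the ratios (1.47-fold, adjusted p = 0.298). It did not pass the adjusted threshold in either source: 3.40% of the probes tested had a smaller p on the arrays and 5.04% in the ratios.

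Il1rn encodes the IL-1 receptor antagonist, which occupies the signalling receptor without activating it. Its intensity was 59.1 and 201 on the c-Maf KO arrays, against 63.7, 47.8 and 41.8 on the WT arrays. Its ratios were 0.06, -0.06 and 1.50 in c-Maf KO samples, against 0.09, -0.30 and -0.60 in WT samples. The high value was that of c-Maf KO replicate 3 alone, and the other 2 c-Maf KO samples lay within the WT range. The difference was 0.99 ± 0.51 on the 5 arrays (1.99-fold, 95% interval -0.33 to 2.31, limma, adjusted p = 0.581) and 0.77 ± 0.44 in the ratios (adjusted p = 0.537). Without c-Maf KO replicate 3 it was 0.20 on the arrays and 0.27 in the ratios, and without c-Maf KO replicate 2 it was 1.78 on the arrays.

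Of the receptors, Il1r1 encodes the chain that binds IL-1α and IL-1β and signals. Its intensity was 175 and 157 on the c-Maf KO arrays, against 123, 92.0 and 112 on the WT arrays, with no overlap of levels (-1.31 and -1.66 in c-Maf KO, against -1.76, -2.16 and -1.995 in WT). The difference on these arrays was 0.49 ± 0.17 (1.40-fold, SE, 95% interval 0.06 to 0.92, limma, adjusted p = 0.445). Over all 6 samples the ratios were -0.06, 0.53 and 0.17 in c-Maf KO, against 0.06, -0.33 and -0.15 in WT. With the added c-Maf KO replicate 1 the groups overlapped, since it lay below WT replicate 1, and the difference was 0.35 ± 0.18 (adjusted p = 0.49). Leaving out c-Maf KO replicate 2 brought it to 0.19 in the ratios and 0.31 on the arrays.

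Il1rap encodes the accessory chain that IL-1 receptors share, and its variants differ in whether the chain spans the membrane. The probe for variant 2 (A_52_P467232) had levels of -3.17 and -2.72 on the c-Maf KO arrays, against -2.99, -2.87 and -2.81 on the WT arrays, and the groups overlapped (difference -0.06, 95% interval -0.46 to 0.35, limma, adjusted p = 0.927). The probe on the Ensembl transcript (A_55_P2041432), 23793 bases further along the chromosome, had levels of -3.72 and -3.37 in c-Maf KO, against -3.21, -3.37 and -3.01 in WT. Its difference was -0.35 ± 0.16 (SE, adjusted p = 0.533), with c-Maf KO replicate 2 the lowest. It was -0.17 without that sample and -0.52 without c-Maf KO replicate 3. The probe for variant 1 (A_55_P2041422) was not well above background on any array. Il1r2 encodes a decoy receptor that binds IL-1 and does not signal. Its level was -6.22 and -6.37 on the c-Maf KO arrays and -6.27, -6.30 and -6.35 on the WT arrays, all of them surrogates for dim spots, and the probe was not well above background on any array.

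Nlrp3 encodes the inflammasome sensor and was dim in both genotypes. Its probe A_52_P650540 had levels of -3.42 and -3.16 on the c-Maf KO arrays, against -3.08, -2.81 and -3.45 on the WT arrays. Its second probe, A_55_P2273439, which lies 1427 bases further along, had levels of -3.97 and -2.97 in c-Maf KO, against -2.72, -2.74 and -3.25 in WT, and was not well above background on c-Maf KO array 2. The groups overlapped for both probes. The difference was -0.18 ± 0.21 for the first and -0.57 ± 0.34 for the second (SE, limma, adjusted p = 0.806 and 0.633). For the first probe it lay between -0.35 (without WT replicate 3) and -0.03 (without WT replicate 2). The second probe rests on c-Maf KO replicate 2: without it the difference was -0.07 on the arrays and -0.17 in the ratios, against -0.47 in the ratios with all 6 samples. The ratio of the second probe minus that of the first was -0.06, -0.67 and 0.06 in c-Maf KO samples and 0.23, -0.06 and 0.08 in WT samples, so that the probes parted by more than 0.23 in that sample only.

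Casp1 encodes caspase-1, the protease that cuts the precursors of IL-1β and IL-18. Its intensity before scaling was 16241 and 17513 on the c-Maf KO arrays, against 16128, 15655 and 17307 on the WT arrays. After scaling its level was 5.22 and 5.15 on the c-Maf KO arrays, against 5.27, 5.25 and 5.27 on the WT arrays. Its ratios were -0.0013, -0.012 and -0.10 in c-Maf KO samples, against 0.017, 0.0013 and 0.043 in WT samples. The c-Maf KO samples lay below the WT samples without overlap, but the largest distance between any 2 samples was small. The difference was -0.08 ± 0.06 on the 5 arrays (SE, 95% interval -0.24 to 0.08, limma, adjusted p = 0.705) and -0.06 ± 0.06 in the ratios (interval -0.21 to 0.09, adjusted p = 0.713). This was the narrowest interval among the 10 probes on either source.

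**Figure D3:**
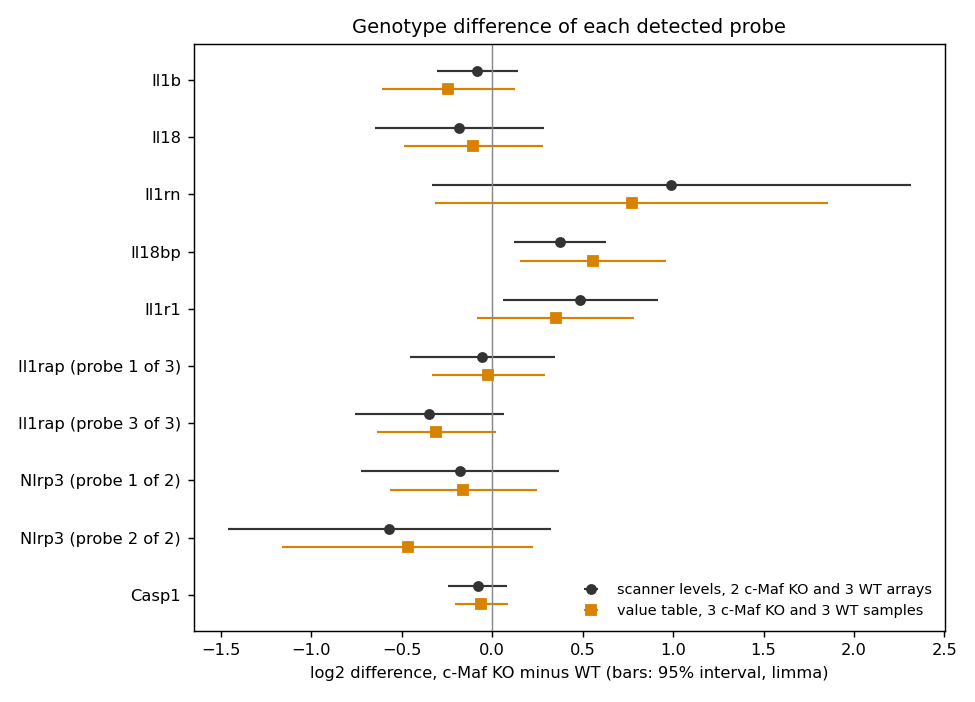
Log2 difference, c-Maf KO minus WT (horizontal axis), of the 10 detected member probes with 95% intervals from limma, from the 5 arrays and from the 6-sample ratios. The intervals of Il18bp in both sources and of Il1r1 on the 5 arrays lie above 0, all others include 0, and no probe passed the adjusted threshold.

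Across the 10 detected probes 3 differences were positive, those of Il1rn, Il18bp and Il1r1, and 7 were negative, with the same signs in both sources, which share 5 of their samples. Il1rap and Nlrp3 each entered the 7 with more than 1 probe. Over all 28273 probes 53.9% of the differences were negative on the 5 arrays and 50.9% in the ratios. The median difference was -0.08 on the 5 arrays and -0.08 in the ratios, against -0.014 and -0.0038 over all 28273 probes. The median size of a difference, whatever its sign, was 0.27 on the arrays and 0.28 in the ratios, against 0.10 and 0.10 over all probes. The size of a difference depends on how far a probe varies between arrays, and no test was made of the members as a set. The 95% intervals had half-widths between 0.16 (Casp1) and 1.32 (Il1rn) on the 5 arrays, which sets what these samples could show for each gene.

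The 250 bases before the start of the genes with a positive difference are given here, and the genes were picked by that sign. The members with negative differences also had the same sign in both sources. Their windows are not printed, among them that of Nlrp3 with a TGCTGA match. The sequences are RefSeq windows on GRCm38.p6, written on the gene's strand, at chr7:102018233-102018482 for Il18bp (minus strand), chr1:40224830-40225079 for Il1r1 and chr2:24336610-24336859 for Il1rn (both plus strand). Il1r1 and Il1rn have further start sites whose windows are not printed. Capitals mark matches on either strand to TGCTGA, the core of the element that Maf proteins bind, or to TGANTCA, the AP-1 site, which share the letters TGA.
Il18bp: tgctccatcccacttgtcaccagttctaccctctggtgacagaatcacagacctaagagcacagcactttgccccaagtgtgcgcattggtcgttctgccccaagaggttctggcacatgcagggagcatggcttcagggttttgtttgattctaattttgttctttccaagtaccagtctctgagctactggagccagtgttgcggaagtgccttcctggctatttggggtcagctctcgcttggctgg
Il1r1: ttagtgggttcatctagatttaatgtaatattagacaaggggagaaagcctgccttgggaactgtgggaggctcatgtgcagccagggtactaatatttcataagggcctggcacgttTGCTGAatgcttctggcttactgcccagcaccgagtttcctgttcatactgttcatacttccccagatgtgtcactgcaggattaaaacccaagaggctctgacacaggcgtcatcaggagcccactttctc
Il1rn: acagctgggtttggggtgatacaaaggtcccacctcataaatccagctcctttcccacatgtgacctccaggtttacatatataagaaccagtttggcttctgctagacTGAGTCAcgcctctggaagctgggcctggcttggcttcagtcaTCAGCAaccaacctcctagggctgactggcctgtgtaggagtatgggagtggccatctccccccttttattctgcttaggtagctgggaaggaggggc
In the printed Il1r1 window the TGCTGA match began 132 bases before the start, and the further Il1r1 window held neither motif. In Il1rn the AP-1 match TGAGTCA began 141 bases and a TGCTGA match on the other strand 98 bases before it, and the Il18bp window held neither motif. TGCTGA was found in 16.1% of 32851 windows of all genes and in 4 of the 14 member windows, which belong to Il1r1, Il1rn and Nlrp3. TGANTCA was in 6.75% of all windows and in those of Il1rn and Il1a. Of 3 other motifs, an NF-κB site (1.41% of all windows) was in a further Il1rn window, TTCNNNGAA (a GAS element, 7.02%) was in that of Il1r2, and an ISRE, the interferon-stimulated response element (2.98%), was in none. These are matches of letters, and binding was not measured.

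Other genes of the pathway were followed as 5 lists of 66 genes, each gene represented by its brightest detected probe. Of these, 49 were detected and none passed the adjusted test in either source, while 7 reached an unadjusted p under 0.05 on the 5 arrays and 5 in the ratios, where 10.5% and 12.1% of all probes did so. Their median difference was -0.019 on the arrays and 0.0075 in the ratios, against -0.011 and 0.0017 over all 20252 genes. None of the 6 other ligands of the family, among them Il33, was detected. Of 7 other receptor genes 3 were detected: Il1rl1, the IL-33 receptor, differed by 0.01, Il18rap, the accessory chain for IL-18, by -0.01 and Sigirr, an inhibitory receptor, by 0.01 on the arrays. In the ratios the differences were -0.15 for Il1rl1, -0.30 for Il18rap and -0.08 for Sigirr, and Il18rap was well above background on only 1 c-Maf KO array and 2 WT arrays.

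Of 22 other inflammasome and pyroptosis genes 20 were detected, 7 with positive and 13 with negative differences and a median of -0.07. Pycard, the adaptor between NLRP3 and caspase-1, differed by -0.08, and Gsdmd, the pore protein that caspase-1 opens, by 0.05. The one gene of this list without overlap between the genotypes in the ratios was Naip5, a sensor for bacterial flagellin, whose difference was -0.13 ± 0.07 (SE, limma, adjusted p = 0.593), where 20.0% of all genes had no overlap. All 15 genes of IL-1 receptor signalling were detected, 6 with positive and 9 with negative differences and a median of -0.02. In the ratios the genotypes did not overlap for 5 of them, 2 higher and 3 lower in c-Maf KO, against 20.0% of all genes. Ikbkg, the regulatory subunit of the IκB kinase, differed by 0.29 ± 0.09 (adjusted p = 0.405), and its second probe by 0.19. Traf6, the ubiquitin ligase downstream of MyD88, differed by -0.33 ± 0.09 at its brightest probe (adjusted p = 0.395), but its other probes gave 0.11 and -0.72, the last with a mean level of -4.20, at the lowest detected signals. Tab2, an adaptor of the TAK1 kinase, differed by -0.12 (adjusted p = 0.617).

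Of 16 genes that IL-1 is known to induce 11 were detected, and Il6, Csf2, Csf3, Cxcl1 and Mmp3 were not. The differences of 7 were positive and of 4 negative, with a median of 0.08. In the ratios 3 genes had all c-Maf KO samples above all WT samples, and 0 had them all below. Of all probes 10.2% lay above in this way, and of all genes 20.0% had no overlap in either direction. Saa3, an acute-phase protein, had ratios of 1.29, 0.93 and 0.28 in c-Maf KO samples, against -2.19, -0.28 and -0.81 in WT samples. It was well above background on both c-Maf KO arrays and on no WT array, and so met the filter only through the c-Maf KO arrays. Its place among the positive genes without overlap was thus partly set by that filter. Its mean c-Maf KO signal was 1.83-fold a bound for WT (limma on the measured signals, adjusted p = 0.457). That bound took each WT array's lowest signal well above background, or the probe's own signal where higher. It is not a detection limit measured for this probe. Ptgs2, the inducible cyclooxygenase, had ratios of 0.41, 0.28 and 0.50 in c-Maf KO, against -0.28, -1.51 and -0.41 in WT, and was detected on 2 c-Maf KO arrays and 1 WT array. Its WT arrays alone would not have met the filter of at least 2 arrays. The count of 3 genes above and 0 below was thus partly set by the filter, through Saa3 and Ptgs2. The Ptgs2 difference of 1.12 ± 0.40 (adjusted p = 0.458) includes the signals of the 2 WT arrays on which it was not well above background and so has no firm size. Ccl2, a monocyte chemoattractant, had ratios of 0.19, 0.04 and 0.73 in c-Maf KO, against -0.04, -0.70 and -0.72 in WT (difference 0.87 ± 0.32, adjusted p = 0.46).

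**Figure D4:**
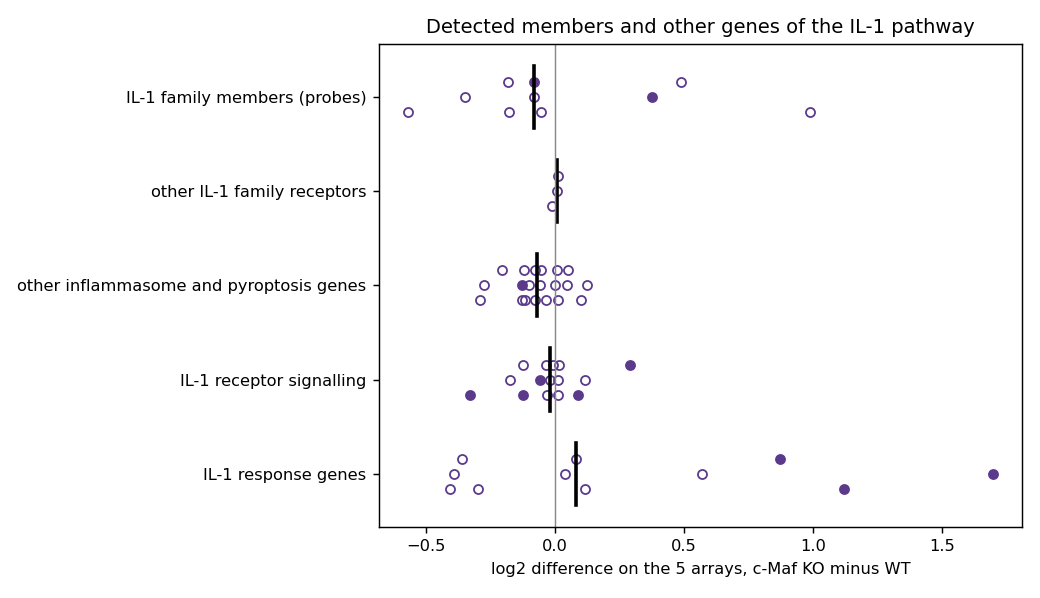
Log2 difference on the 5 arrays, c-Maf KO minus WT (horizontal axis), of each detected member and of each detected gene of the lists around it (1 point per probe for members and 1 per gene for lists, filled where the genotypes do not overlap in the 6-sample ratios, black lines at the median). Most points lie near 0, with the widest scatter among the IL-1 response genes, where the fitted values are 1.70 for Saa3, which was detected on no WT array, 1.12 for Ptgs2, detected on 1 WT array, and 0.87 for Ccl2.

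Markers of other cell types were read in the same samples. Of 10 fibroblast and stromal markers 9 were detected, all 9 with positive differences (median 0.93), and their mean ratio was 0.21, 0.08 and 0.50 in c-Maf KO samples, against -0.10, -0.96 and -0.62 in WT samples. Col1a2 differed by 1.05, Acta2 by 1.01 and Col3a1 by 1.05. The mean ratio of 4 detected monocyte markers was 0.35, 0.19 and 0.16 in c-Maf KO, against -0.32, -0.25 and -0.19 in WT, with Ccr2 at 0.72 and Plac8 at 0.78. The 10 neutrophil markers, all detected, had mean ratios of -0.27, 0.29 and -0.18 in c-Maf KO, against -0.21, -0.05 and 0.42 in WT, while Ly6g within that list differed by 1.53. Mast cell and basophil markers (4 of 7 detected) had mean ratios of -0.95, 1.16 and -0.94 in c-Maf KO, against 0.14, -0.16 and 1.73 in WT. These means include signals not well above background. Cpa3 and Fcer1a were well above it on only 1 c-Maf KO array and 1 WT array each, and Mcpt8 on only 1 c-Maf KO array. Of the markers of dendritic cells 4 of 5 were detected, of T, B and NK cells 2 of 6 and of erythroid cells 1 of 4. The detected dendritic cell markers were split, 2 with positive and 2 with negative differences and a median of -0.0026. Gata2 in the mast cell list differed by -0.47 and Flt3 in the dendritic cell list by -0.38. Both were without overlap in the ratios, as were 20.0% of all genes. The 7 M2-like markers were all detected, 2 with positive and 5 with negative differences and a median of -0.10. The genotypes did not overlap in the ratios for 4 of these 7 markers, 2 in each direction, against 20.0% of all genes. Of these 4, Arg1, an arginine-degrading enzyme, differed by 0.63, Pdcd1lg2 by 0.22, Mrc1, the mannose receptor, by -0.25 and Retnla by -0.13. Among the 8 macrophage markers 7 differences were negative (median -0.12). Without overlap in the ratios were 3 on the negative side, Fcgr1 (-0.59), C1qa (-0.36) and Adgre1 (-0.29). On the positive side it was 1, Lyz2 (0.23), where 20.0% of all genes had no overlap in either direction. None of the markers named or counted here passed the adjusted test. Il1rn, Il18bp, Il1r1, Ccl2, Ptgs2 and Saa3 were on the positive side, as were all detected stromal and all detected monocyte markers. The part of other cells in those values was not tested.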

How the data were processed

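RNA of 3 c-Maf KO and 3 WT macrophage samples was hybridised to 1-colour Agilent arrays. The deposited scanner files hold intensities per spot; the submitters' processing notes name Agilent Feature Extraction 10.7.3.1. Per the file headers, detrending was on, background correction was off and dim spots could receive surrogate intensities, which makes low levels and folds between dim probes unreliable. The deposited value table of the authors holds linear ratios. Compared with the scanner files of 5 arrays, its log2 values equalled the scaled log2 intensities after a constant per probe and per array (array offsets -0.013 to 0.0084), and each probe's median over the samples is 0. Any filter that the authors put on low values before deposit is not stated.

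Control spots and flagged spots (134 to 167 of 59305 per array) were left out. Intensities were divided by the array's 75th percentile, log2 was taken and spots of a probe were averaged, which dropped 13 probes with no usable spot on an array. A probe counted as well above background where at least 0.5 of its spots were flagged so, and was tested if this held on at least 2 arrays (28273 probes). Each difference is c-Maf KO minus WT in log2 units, from limma version 3.58.1 in R version 4.3.3 (lmFit, eBayes, Benjamini-Hochberg over all probes tested, adjusted p under 0.05), on 5 arrays and again on the log2 ratios of 6 samples. The number of arrays and the scatter between samples limit the precision. The level of c-Maf KO replicate 1 was placed on the array scale through its ratios and has no background flag.

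The members and lists were chosen with earlier results of these data known. Text names every member probe, Maf, and from each list the genes that passed the test. It also names up to 3 per list with the largest difference on the 5 arrays among genes without overlap in the ratios. Csf1r, Cd68, Lyz2, Cpa3, Fcer1a, Mcpt8, Retnla, Il33, Il1rl1, Il18rap, Sigirr, Pycard, Gsdmd and the undetected response genes were named in addition, after their values were seen. Probe coordinates are those of the files (mm9), and promoter windows are RefSeq's (GRCm38.p6). Alternatives covered background correction, scaling, filters, probes per gene, variance model, array weights, a replicate block, averaging of WT replicates 1 and 3, and leaving out each sample. WT replicates 1 and 3, whose files share a tag, differed as much as other WT pairs (SD of log2 differences 0.321, against 0.319 and 0.327) and were kept apart. All arrays share slide and scan, so no block for these could be fitted.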

Additional observations from a re-analysis of the deposited data

How the results depend on the processing

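No member probe was called under any alternative tried on either source. The 5 pathway lists had 0 calls in the alternatives run for them, which were the trended variance, each array left out in turn and the ratios. The smallest adjusted p of a member probe was that of Il18bp with a trended, robust variance, 0.111 on the 5 arrays and 0.195 in the ratios. Of 147 alternative values of member differences on the 5 arrays 144 kept their sign and side of the threshold and 3 turned sign, all without c-Maf KO replicate 2 (Il1b 0.021, Il18 0.099, Il1rap A_52_P467232 0.17). Of 110 in the ratios 106 did so, and 4 turned sign: Il18 to 0.070 and Il1rap A_52_P467232 to 0.10 without c-Maf KO replicate 2, and this Il1rap probe to 0.0068 after quantile normalization and 0.027 without WT replicate 3. Leaving out one sample at a time gave Il18bp 0.30 to 0.45 and Il1r1 0.31 to 0.66 on the arrays, and Il18bp 0.38 to 0.68 and Il1r1 0.19 to 0.49 in the ratios. For Il1b the range was -0.18 to 0.021, for Il18 -0.46 to 0.099 and for the Il1rap probe -0.28 to 0.17 on the arrays. In the ratios it was -0.20 to 0.070 for Il18 and -0.11 to 0.10 for the Il1rap probe. Fits that leave 1 c-Maf KO array assume that it varies like the WT arrays. The count of all probes called on the 5 arrays, 7, was 22 with normexp, 1 with probes above background on all 5 arrays, 123 with the trended variance, 2 with WT replicates 1 and 3 averaged, and 2 to 18 with a sample left out. In the ratios, 6 became 2 without the filter, 173 with the trended variance and 2 to 31 with a sample left out. The cause was not tested. Same-numbered samples were not clearly paired (correlations -0.0043, -0.044 and 0.081), and a replicate block gave 0 called probes on the arrays, from replicates 2 and 3 only, and 7 in the ratios. Il18bp under the block differed by 0.39 on the arrays and 0.56 in the ratios.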

Other observations

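Il1bos, a gene named for the strand opposite Il1b, has 1 probe on the array and was singled out after its values were seen. It was well above background on 1 of the 5 arrays, that of WT replicate 1, where its level was -2.67. On the other arrays its level was -5.35 and -6.53 in c-Maf KO and -6.45 and -6.48 in WT. Its ratios were -0.28, 1.12 and -0.08 in c-Maf KO samples, against 3.79, 0.0024 and -0.0024 in WT samples. The Il1b probe on the WT replicate 1 array had a level of -3.55, the same to 2 decimals as on WT replicate 2.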
